A study of Homo sapiens with 24 samples.

Results

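The dual-specificity phosphatases (DUSPs) that act on MAP kinases were followed through the transcriptomes of 22Rv1 cells treated with KB05 or KB02. 22Rv1 is an established human prostate carcinoma line. The 10 genes were taken by symbol: DUSP1, DUSP2, DUSP4, DUSP5, DUSP6, DUSP7, DUSP8, DUSP10, DUSP14 and DUSP16. All 10 were present among the 60232 gene identifiers of the count table, and all 10 were among the 18379 genes that passed the filter on low counts. The groups were 22Rv1 cells given KB05 at 200 µM, 22Rv1 cells given KB02 at 200 µM, and 22Rv1 cells given DMSO, the vehicle, with 3 libraries in each. KB05 and KB02 are small molecules for which only code names are used here. Per the labels, cells were collected at 3 h. The design text states an exposure of 1 h followed by 2 h of recovery in new medium, and describes the triplicates as biological. These times are recorded for KB05 and KB02 cells and not for DMSO cells. One unmodified cell line supplied every library, so the values describe that line alone. The comparisons ask how the transcripts of these phosphatases stood after each compound, and where the compounds differed at the same dose and time.

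The MAP kinases ERK, JNK and p38 are switched on by phosphorylation of a threonine and a tyrosine in their activation loop. A DUSP of this family, also called a MAP kinase phosphatase, removes both phosphates and so turns the kinase off, and many of its genes are themselves transcribed in response to the kinases they restrain. DUSP1, DUSP2, DUSP4 and DUSP5 are inducible enzymes of the nucleus. DUSP6 and DUSP7 are cytosolic enzymes that prefer ERK. DUSP8, DUSP10 and DUSP16 prefer JNK and p38, and DUSP14 is a small member without the MAP kinase-binding domain of the others. Only messenger RNA was measured here, so the values say nothing of phosphatase protein or of kinase phosphorylation.

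Promoter sequence was examined for 8 of the 10 genes, in 9 windows of 250 bases that end just before the start site in RefSeq annotation (build GRCh38.p14). DUSP4 and DUSP5 had no window, so the matches below say nothing of them. The windows of DUSP1, DUSP2 and DUSP8 are printed because they hold the matches described next. All 3 genes lie on the minus strand, and positions are counted back from the start site, so that -1 is the base before it. Capitals mark the cAMP response element TGACGTCA, the E-box CACGTG and the TATA box TATAAA. The DUSP1 window is chr5:172771196-172771445, that of DUSP2 is chr2:96145441-96145690 and that of DUSP8 is chr11:1572272-1572521.
DUSP1: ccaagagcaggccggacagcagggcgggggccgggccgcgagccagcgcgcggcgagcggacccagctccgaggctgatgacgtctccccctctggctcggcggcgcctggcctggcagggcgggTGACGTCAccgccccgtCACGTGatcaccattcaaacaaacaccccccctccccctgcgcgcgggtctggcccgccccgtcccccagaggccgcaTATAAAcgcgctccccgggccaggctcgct
DUSP2: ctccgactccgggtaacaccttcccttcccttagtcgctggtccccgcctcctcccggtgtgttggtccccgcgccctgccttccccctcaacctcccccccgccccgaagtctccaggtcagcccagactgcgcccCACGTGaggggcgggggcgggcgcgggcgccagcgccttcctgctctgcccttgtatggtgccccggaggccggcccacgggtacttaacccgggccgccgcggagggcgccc
DUSP8: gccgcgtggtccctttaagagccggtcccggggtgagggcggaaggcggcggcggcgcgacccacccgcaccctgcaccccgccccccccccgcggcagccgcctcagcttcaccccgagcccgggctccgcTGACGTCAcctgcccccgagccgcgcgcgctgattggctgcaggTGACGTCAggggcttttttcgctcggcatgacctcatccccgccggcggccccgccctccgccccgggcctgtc
The window of DUSP1, the phosphatase best known as an immediate-early gene, held a cAMP response element at -125 to -118, an E-box at -108 to -103 and a TATA box at -30 to -25. DUSP8 held 2 cAMP response elements, at -118 to -111 and at -74 to -67, and DUSP2 held an E-box at -113 to -108. The cAMP response element was thus matched in 2 of the 8 genes, and it occurs in 1.65% of the 35116 human windows searched in the same way on both strands. The E-box was matched in 2 of the 8 genes against 6.34% of all windows, and the TATA box in 1 of the 8 against 10.7%. The shorter element TGACG, which lies inside every full element and in DUSP1 also overlaps the E-box, was matched in the same 2 genes as the full element, against 21.2% of all windows. The AP-1 site TGANTCA, the heat shock core GAANNTTC, the ETS site CCGGAAG and the CArG box had no match in the windows of the 8 genes, and they occur in 6.57%, 5.78%, 8.52% and 1.16% of all windows. A match describes letters in a window and is not a measured binding site. The RefSeq starts of DUSP7, DUSP8 and DUSP16 lie outside the bounds of those genes in GENCODE release 29, which gave the positions below.

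Transcripts of 8 of the 10 phosphatases rose with KB05 and none fell. With KB02, 7 rose and 1, DUSP4, fell. In the direct comparison 6 were higher with KB05 than with KB02 and 1, DUSP7, was lower. Among all 18379 genes tested, 18.7% were called higher and 21.1% lower in KB05 against DMSO. For KB02 against DMSO those shares were 22.8% higher and 23.3% lower, and for KB05 against KB02 they were 21.8% higher and 18.2% lower. Of the calls, 49.5% were higher for KB02 against DMSO and 54.4% for KB05 against KB02, and with scaling by library size only these shares were 63.8% and 37.4%. The median log2 fold change of the 10 genes was 1.79 for KB05 against DMSO, 1.00 for KB02 against DMSO and 0.55 for KB05 against KB02, beside medians over all genes of -0.0025, 0.0016 and 0.06. Both comparisons with DMSO use the same 3 DMSO libraries. A gene was called where edgeR's quasi-likelihood test gave a Benjamini-Hochberg adjusted p below 0.05 over all genes tested. In bulk RNA, fewer cells expressing a gene and less RNA per cell cannot be told apart.

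**Figure D1:**
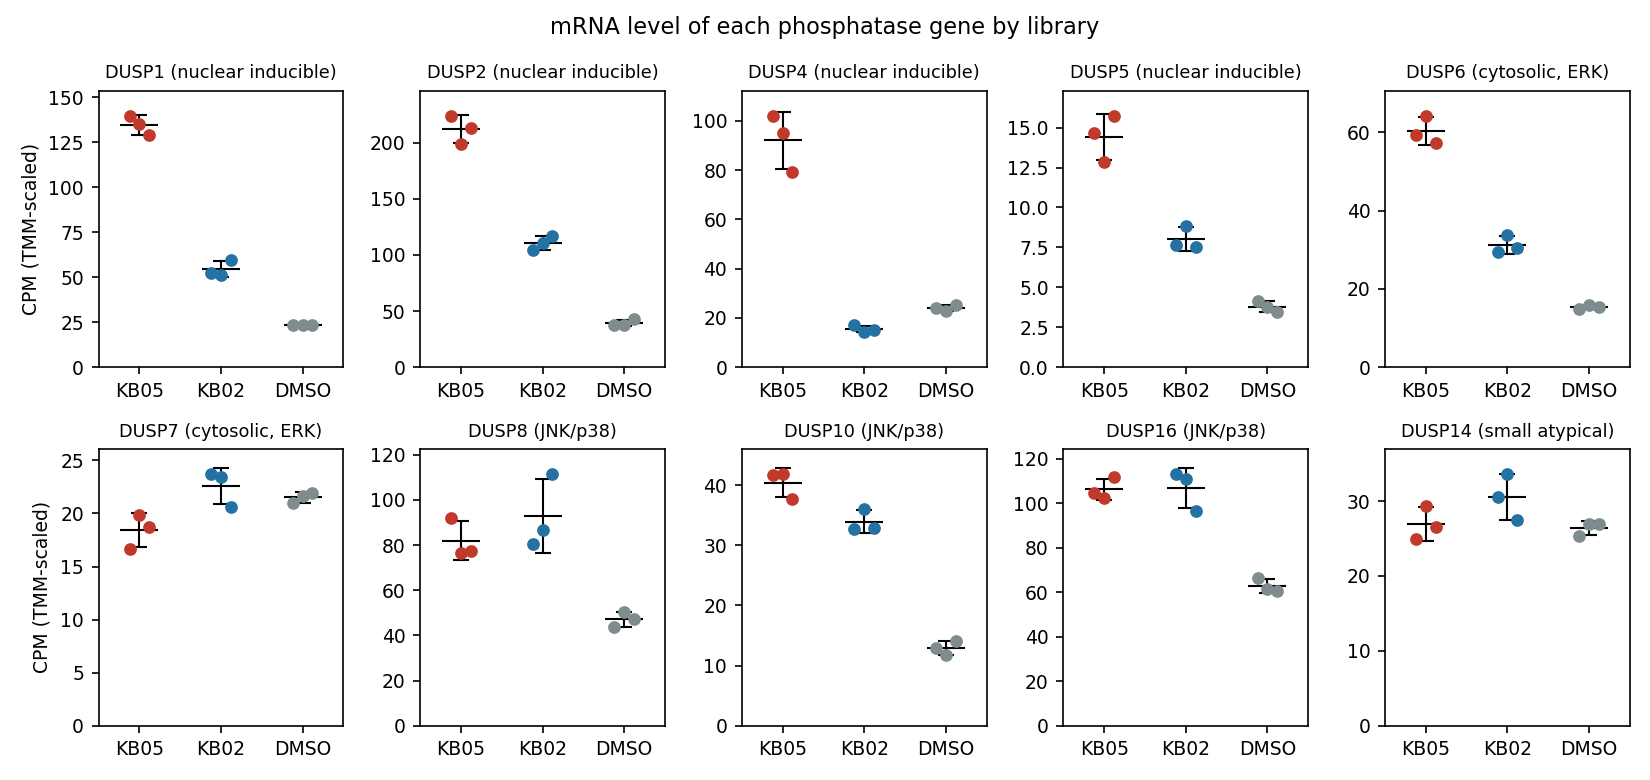
Level (CPM, TMM-scaled, vertical axes from 0) of the 10 phosphatase genes in each KB05, KB02 and DMSO library, with points for libraries, a long line for the mean of 3 and bars for ± 1 SD. DUSP1, DUSP2, DUSP5 and DUSP6 step down in the order KB05, KB02, DMSO, as does DUSP10 with a small step between the compounds. The KB02 libraries of DUSP4 lie below those of DMSO.

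Among the nuclear inducible enzymes, DUSP1, DUSP2 and DUSP5 rose with each compound and more with KB05, whereas DUSP4 rose with KB05 and fell with KB02. DUSP1 (ENSG00000120129, chromosome 5, 172768090 to 172771195, GRCh38) dephosphorylates p38, JNK and ERK. It had 139.8, 135 and 129 CPM, counts scaled to a common library size, in the KB05 libraries, 52.3, 51.4 and 59.6 CPM in the KB02 libraries, and 23.4, 23.6 and 23.3 CPM in the DMSO libraries. No library of one group overlapped with another group, and the lowest KB05 library lay above the highest KB02 library. The rise of DUSP1 was 5.74-fold for KB05 against DMSO (log2 2.52 ± 0.08 SE, adjusted p = 1.08e-21) and 2.32-fold for KB02 against DMSO (log2 1.21 ± 0.08 SE, adjusted p = 5.07e-14). KB05 stood 2.48-fold above KB02 (log2 1.31 ± 0.07 SE, adjusted p = 5.20e-15).

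DUSP2 (ENSG00000158050, chromosome 2, 96143166 to 96145440), a phosphatase first known from activated lymphocytes, gave the highest CPM of the 10 in every KB05 library. It had 224, 199 and 214 CPM with KB05, 104, 111 and 117 CPM with KB02, and 37.5, 38 and 42.9 CPM with DMSO. The 3 groups were again fully separate. DUSP2 rose 5.38-fold with KB05 (log2 2.43 ± 0.08 SE, adjusted p = 1.95e-21) and 2.81-fold with KB02 (log2 1.49 ± 0.08 SE, adjusted p = 3.78e-16). The KB05 level was 1.91-fold that of KB02 (log2 0.94 ± 0.07 SE, adjusted p = 7.21e-12).

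DUSP5 (ENSG00000138166, chromosome 10, 110497838 to 110511544, plus strand) is a nuclear phosphatase selective for ERK. It was the lowest of the 10 in CPM in DMSO cells, with 14.6, 12.9 and 15.8 CPM in KB05 libraries, 7.67, 8.87 and 7.54 CPM in KB02 libraries and 4.13, 3.77 and 3.47 CPM in DMSO libraries. Each KB05 library exceeded each KB02 library, and each KB02 library exceeded each DMSO library. The increase was 3.80-fold for KB05 (log2 1.93 ± 0.15 SE, adjusted p = 6.44e-12) and 2.12-fold for KB02 (log2 1.08 ± 0.15 SE, adjusted p = 3.88e-07). KB05 was 1.80-fold above KB02 (log2 0.84 ± 0.13 SE, adjusted p = 4.49e-06). Its smallest library value rested on an estimated count of 57.

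DUSP4 (ENSG00000120875, chromosome 8, 29333064 to 29350668), which dephosphorylates ERK and JNK in the nucleus, was the only one of the 10 called in opposite directions. Its libraries held 102, 94.8 and 79.3 CPM with KB05, 17.0, 14.3 and 15.2 CPM with KB02, and 24.0, 22.8 and 25.0 CPM with DMSO. All KB05 libraries were above, and all KB02 libraries below, the 3 DMSO libraries. DUSP4 rose 3.85-fold with KB05 (log2 1.94 ± 0.09 SE, adjusted p = 8.68e-17) and was 1.54-fold lower with KB02 (log2 -0.63 ± 0.10 SE, adjusted p = 3.47e-06). The direct comparison put KB05 5.94-fold above KB02 (log2 2.57 ± 0.09 SE, 95% interval 2.38 to 2.76, adjusted p = 5.83e-19). Of the 18379 genes tested, 102 had a larger log2 fold change than DUSP4 in that comparison. For KB05 against DMSO, the genes with a larger log2 fold change numbered 177 for DUSP1, 206 for DUSP2, 344 for DUSP4 and 353 for DUSP5.

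The cytosolic ERK phosphatases parted, since DUSP6 rose with each compound and DUSP7 was called against DMSO with neither. DUSP6 (ENSG00000139318, chromosome 12, 89347232 to 89353271) is specific for ERK, and its transcription is known to follow ERK activity. It had 59.3, 64.2 and 57.3 CPM in KB05 cells, 29.4, 33.9 and 30.4 CPM in KB02 cells and 14.9, 15.9 and 15.3 CPM in DMSO cells. The 3 groups did not overlap, in the same order as for DUSP1, DUSP2 and DUSP5. DUSP6 rose 3.92-fold with KB05 (log2 1.97 ± 0.09 SE, adjusted p = 1.46e-17) and 2.03-fold with KB02 (log2 1.02 ± 0.09 SE, adjusted p = 3.65e-11). It was 1.93-fold higher with KB05 than with KB02 (log2 0.95 ± 0.08 SE, adjusted p = 7.12e-11). An antisense gene, AC024909.2, overlaps an exon of DUSP6 and averaged 2.36 CPM with KB05, 1.13 CPM with KB02 and 1.19 CPM with DMSO. The sources used here do not say whether the libraries kept strand, so part of the reads of that pair could not be assigned with certainty.

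DUSP7 (ENSG00000164086, chromosome 3, 52048919 to 52056550), the second cytosolic phosphatase directed at ERK, had 16.7, 19.9 and 18.7 CPM with KB05, 23.7, 23.4 and 20.6 CPM with KB02, and 20.96, 21.69 and 21.95 CPM with DMSO. The KB05 libraries lay below those of DMSO, and the KB02 libraries spread to either side of them. The difference from DMSO was -0.23 on the log2 scale for KB05 (95% interval -0.43 to -0.02, adjusted p = 0.0698) and 0.07 for KB02 (95% interval -0.13 to 0.27, adjusted p = 0.583), neither of which passed the threshold. DUSP7 was 1.23-fold lower with KB05 than with KB02 (log2 -0.30 ± 0.10 SE, adjusted p = 0.0155), and without KB05 replicate 1 that call was lost (log2 -0.23, adjusted p = 0.101).

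The JNK and p38 phosphatases DUSP8, DUSP10 and DUSP16 rose with each compound. DUSP10 (ENSG00000143507, chromosome 1, 221701424 to 221742176) acts on JNK and p38. It had 41.8, 41.9 and 37.7 CPM with KB05, 32.8, 36.1 and 32.9 CPM with KB02, and 13, 11.8 and 14.1 CPM with DMSO. The libraries of the 3 groups did not overlap, although the KB05 and KB02 values were close beside their distance from DMSO. DUSP10 rose 3.13-fold with KB05 (log2 1.65 ± 0.09 SE, adjusted p = 8.60e-15) and 2.62-fold with KB02 (log2 1.39 ± 0.09 SE, adjusted p = 1.39e-13). KB05 stood 1.19-fold above KB02 (log2 0.25 ± 0.09 SE, adjusted p = 0.0188). That last call was lost under 7 of 16 alternatives, namely scaling by library size only (adjusted p = 0.235), DESeq2 (adjusted p = 0.0561), and without DMSO replicate 2 (adjusted p = 0.062), KB02 replicate 1 (adjusted p = 0.177) or 3 (adjusted p = 0.0609), or KB05 replicate 1 (adjusted p = 0.0705) or 2 (adjusted p = 0.0722).

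DUSP8 (ENSG00000184545, chromosome 11, 1554044 to 1571920) had 92.0, 76.6 and 77.2 CPM in KB05 libraries, 80.5, 86.5 and 111 CPM in KB02 libraries, and 43.7, 50.4 and 47.2 CPM in DMSO libraries. Every treated library was above every DMSO library, and the libraries of the compounds overlapped. The rise was 1.74-fold for KB05 (log2 0.80 ± 0.12 SE, adjusted p = 0.000124) and 1.97-fold for KB02 (log2 0.98 ± 0.12 SE, adjusted p = 1.24e-05). The difference of KB05 from KB02 was -0.18 on the log2 scale (95% interval -0.42 to 0.07, adjusted p = 0.254). DUSP8 was called lower with KB05 than with KB02 without KB02 replicate 1 (log2 -0.32, adjusted p = 0.0169) and with scaling by library size only (adjusted p = 0.0477). The antisense gene KRTAP5-AS1 overlaps one end of DUSP8 without sharing exon bases and averaged 1.71 CPM with KB05, 0.849 CPM with KB02 and 0.446 CPM with DMSO.

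DUSP16 (ENSG00000111266, chromosome 12, 12474210 to 12562383), the third phosphatase of this class, had 105, 103 and 112 CPM with KB05, 113, 111 and 96.7 CPM with KB02, and 66.5, 61.6 and 60.4 CPM with DMSO. The treated groups overlapped with each other and stood clear of DMSO. DUSP16 rose 1.69-fold with KB05 (log2 0.76 ± 0.07 SE, adjusted p = 1.64e-09) and 1.70-fold with KB02 (log2 0.77 ± 0.07 SE, adjusted p = 3.62e-10). The difference of KB05 from KB02 was -0.01 on the log2 scale, with a 95% interval of -0.16 to 0.14 (adjusted p = 0.937).

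DUSP14 (ENSG00000276023, chromosome 17, 37489831 to 37513501, plus strand) was called in none of the 3 comparisons. Its libraries held 24.9, 29.3 and 26.5 CPM with KB05, 30.5, 33.6 and 27.5 CPM with KB02, and 25.3, 26.9 and 27.0 CPM with DMSO. The KB05 libraries overlapped those of DMSO, while the KB02 libraries lay just above them. The log2 difference from DMSO was 0.02 ± 0.09 SE for KB05 (adjusted p = 0.865) and 0.21 ± 0.09 SE for KB02 (95% interval 0.02 to 0.40, adjusted p = 0.0592). The KB02 difference passed the threshold under 7 of 16 alternatives, with RLE, upper-quartile and library-size scaling (adjusted p = 0.0456, 0.0174 and 0.0037), with a replicate block (adjusted p = 0.0497), and without DMSO replicate 2 (adjusted p = 0.0438), KB02 replicate 1 (adjusted p = 0.0445) or KB02 replicate 3 (adjusted p = 0.0196). KB05 against KB02 gave a log2 difference of -0.19 ± 0.09 SE (adjusted p = 0.108), which passed with library-size scaling (adjusted p = 0.0135), with only those groups in the fit (adjusted p = 0.0479) and without KB02 replicate 3 (adjusted p = 0.0369).

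**Figure D2:**
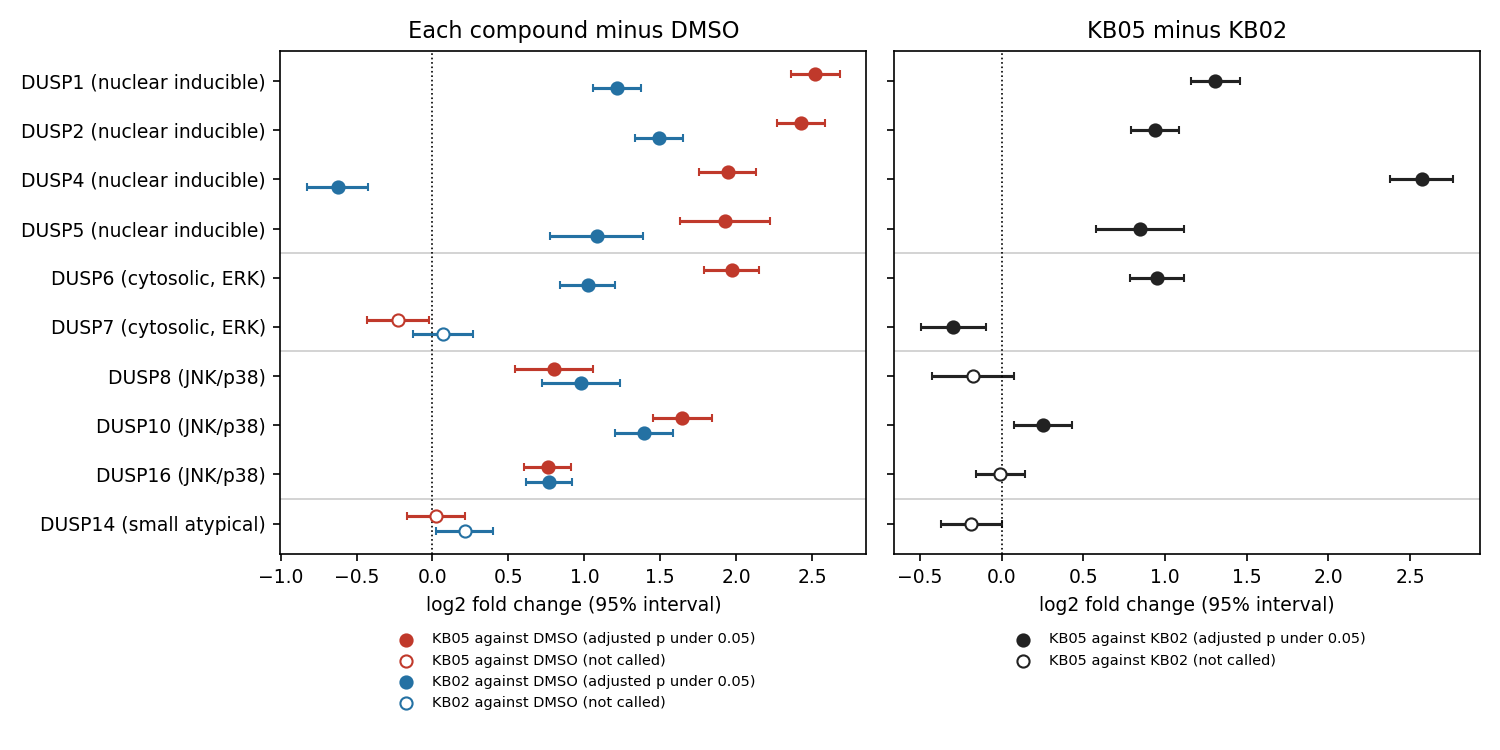
Log2 fold changes with 95% intervals of the 10 phosphatase genes, ordered by role, for KB05 against DMSO, KB02 against DMSO and KB05 against KB02. The direct difference runs from 2.57 for DUSP4 to -0.30 for DUSP7, and the intervals of DUSP8, DUSP14 and DUSP16 in that comparison include 0. Filled points passed the threshold.

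Set side by side by role, all 4 nuclear inducible genes were higher with KB05 than with KB02, by 1.80-fold to 5.94-fold. Of the cytosolic ERK pair, DUSP6 was higher with KB05 and DUSP7 lower. Of the 3 JNK and p38 genes, DUSP10 was higher with KB05 by 1.19-fold, and DUSP8 and DUSP16 did not pass the threshold. The median log2 fold change of the nuclear inducible genes was 2.19 for KB05 against DMSO, 1.15 for KB02 against DMSO and 1.12 for KB05 against KB02. For the cytosolic ERK pair the medians were 0.87, 0.55 and 0.33 in the same comparisons, and for the JNK and p38 genes 0.80, 0.98 and -0.01. The differences between role classes were not tested.

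Levels can be set against each other between genes only per length, so mean CPM was divided by the kilobases of each gene's merged exons. In KB05 cells DUSP2 was first at 109.8 CPM per kb and DUSP1 second at 66.7. DUSP16 (18.6) and DUSP8 (17.7) followed and overlapped between libraries, as did DUSP10 (13.9), DUSP6 (13), DUSP4 (12.7) and DUSP14 (10.8), each with its neighbour. DUSP5 (5.51) and DUSP7 (3.26) closed the order on this scale. In KB02 cells the order was DUSP2 (57.4), DUSP1 (27.0), DUSP8 (20.1), DUSP16 (18.7), DUSP14 (12.2), DUSP10 (11.6), DUSP6 (6.73), DUSP7 (4.0), DUSP5 (3.07) and DUSP4 (2.13 CPM per kb), in which DUSP8 with DUSP16 and DUSP14 with DUSP10 overlapped. In DMSO cells DUSP2 led at 20.4 CPM per kb, and DUSP1 (11.6), DUSP16 (11), DUSP14 (10.6) and DUSP8 (10.2) each overlapped with the neighbour. DUSP10 (4.44), DUSP7 (3.81), DUSP6 (3.32), DUSP4 (3.30) and DUSP5 (1.45 CPM per kb) were lower, with only DUSP6 and DUSP4 overlapping. DUSP4 thus stood last of the 10 in KB02 cells, ninth in DMSO cells and seventh in KB05 cells. With the longest coding transcript as the length, DUSP4 stood last in KB02 cells, at rank 8 in DMSO cells and at rank 5 in KB05 cells, ahead of DUSP10 and DUSP6. In DMSO cells DUSP14 and DUSP16 then stood ahead of DUSP1, DUSP7 ahead of DUSP10 and DUSP4 ahead of DUSP6, and the order in KB02 cells did not change.

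The summed level of the 10 genes was 271.9 ± 9.77 CPM per kb in KB05 cells, 163 ± 6.16 in KB02 cells and 80.1 ± 1.84 in DMSO cells (SD, n = 3 each). The nuclear inducible genes supplied 71.6% ± 0.859 of that sum with KB05, 55.0% ± 1.3 with KB02 and 45.9% ± 0.902 with DMSO. Most of this came from DUSP1 and DUSP2, whose joint share was 64.9% ± 0.871 with KB05, 51.8% ± 1.51 with KB02 and 40.0% ± 0.944 with DMSO. The JNK and p38 genes held 18.5% ± 0.0899 with KB05, 30.9% ± 0.0807 with KB02 and 32.0% ± 0.704 with DMSO. Cytosolic ERK genes held 5.99% ± 0.499 with KB05, 6.59% ± 0.489 with KB02 and 8.90% ± 0.194 with DMSO, and DUSP14 held 3.97% ± 0.448, 7.51% ± 0.882 and 13.2% ± 0.290 in that order of groups. The share of the nuclear genes did not overlap between any pair of groups, with 70.7% to 72.4% in KB05 libraries, 53.9% to 56.4% in KB02 libraries and 45.1% to 46.9% in DMSO libraries. These shares follow from the levels given above and carry no test of their own.

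**Figure D3:**
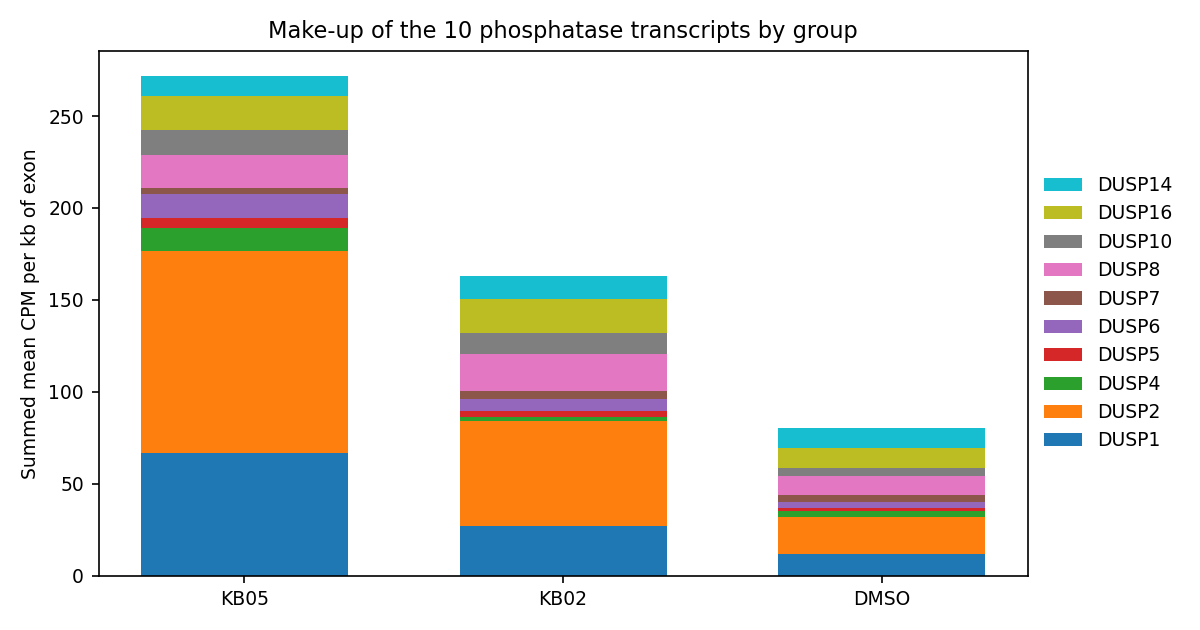
Summed level of the 10 phosphatase genes (mean CPM per kilobase of merged exons, stacked by gene and grouped by role) in KB05, KB02 and DMSO cells. The stack reaches 271.9 CPM per kb in KB05 cells, 163 in KB02 cells and 80.1 in DMSO cells, and DUSP1 and DUSP2 make up most of the difference.

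Patterns over the 9 libraries were compared as log2 CPM relative to each gene's own DMSO mean, and likeness was the root mean square difference between patterns (smaller is more alike). Among the phosphatases, DUSP5 and DUSP6 were closest at 0.140, although one is nuclear and the other cytosolic. DUSP7 and DUSP14 were 0.171 apart, DUSP1 and DUSP2 0.186 apart, and DUSP8 and DUSP16 0.240 apart. DUSP10 lay nearest to DUSP5 at 0.281, and the nearest phosphatase to DUSP4, DUSP6, was at 0.959. Over 13221 genes with a symbol, the genes most like DUSP2, the nuclear gene with the highest mean CPM, were CDC42EP2 (0.0946), DUSP1 (0.186) and ZFP36 (0.195). ELF3 (0.106), NOCT (0.133) and DUSP5 (0.140) lay nearest to DUSP6, and GOLPH3L (0.0631), NBEAL1 (0.0853) and MAP3K13 (0.0883) lay nearest to DUSP16.

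Genes that act around the MAP kinases were read from lists, beginning with the Sprouty and SPRED inhibitors, which restrain the pathway upstream of ERK. Of 7 tested, 4 rose and none fell with KB05 against DMSO, 2 rose and 1 fell with KB02 against DMSO, and 2 were higher and 3 lower with KB05 than with KB02. As shares of the list these are 57.1% higher and 0% lower with KB05, beside 18.7% and 21.1% of all genes, and 28.6% higher and 14.3% lower with KB02, beside 22.8% and 23.3% of all genes. For KB05 against KB02 they are 28.6% higher and 42.9% lower, beside 21.8% and 18.2% of all genes. SPRY1 shared the opposite calls of DUSP4. It averaged 8.71 ± 0.452 CPM with KB05, 2.52 ± 0.101 CPM with KB02 and 4.47 ± 0.823 CPM with DMSO (SD, n = 3 each). SPRY1 rose 1.94-fold with KB05 (adjusted p = 3.21e-05), was 1.77-fold lower with KB02 (adjusted p = 0.000437) and was 3.45-fold higher with KB05 than with KB02 (adjusted p = 1.27e-09). SPRY2 averaged 36.6 ± 4.58 CPM with KB05, 16.1 ± 0.476 CPM with KB02 and 14.9 ± 2.84 CPM with DMSO, a 2.45-fold rise with KB05 (adjusted p = 1.23e-09) and a log2 difference of 0.11 with KB02 (adjusted p = 0.502). SPRED3 was low, with means of 2.14 CPM with KB05, 3.78 CPM with KB02 and 1.19 CPM with DMSO. It rose 3.16-fold with KB02 (adjusted p = 3.14e-06) and 1.79-fold with KB05 (adjusted p = 0.015). The KB05 call was lost without DMSO replicate 1 (adjusted p = 0.061), KB05 replicate 2 (adjusted p = 0.0513) or KB05 replicate 3 (adjusted p = 0.0525).

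Genes whose transcription is known to follow ERK numbered 12 tested, of which 8 rose and 2 fell with KB05, 5 rose and 4 fell with KB02, and 7 were higher and 1 lower with KB05 than with KB02. That was 66.7% higher and 16.7% lower with KB05 (18.7% and 21.1% of all genes), and 41.7% higher and 33.3% lower with KB02 (22.8% and 23.3% of all genes). For KB05 against KB02 it was 58.3% higher and 8.33% lower (21.8% and 18.2% of all genes). EGR1, an immediate-early transcription factor, averaged 1676 ± 138 CPM with KB05, 906 ± 37.0 CPM with KB02 and 56.5 ± 11.6 CPM with DMSO (SD, n = 3 each), and was 1.85-fold higher with KB05 than with KB02 (adjusted p = 4.81e-05). FOS, a subunit of AP-1, averaged 487 ± 13 CPM with KB05, 511 ± 13.5 CPM with KB02 and 25.2 ± 3.98 CPM with DMSO. For FOS the difference of KB05 from KB02 was -0.07 on the log2 scale (95% interval -0.22 to 0.09, adjusted p = 0.512), and the libraries of the compounds overlapped.

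**Figure D4:**
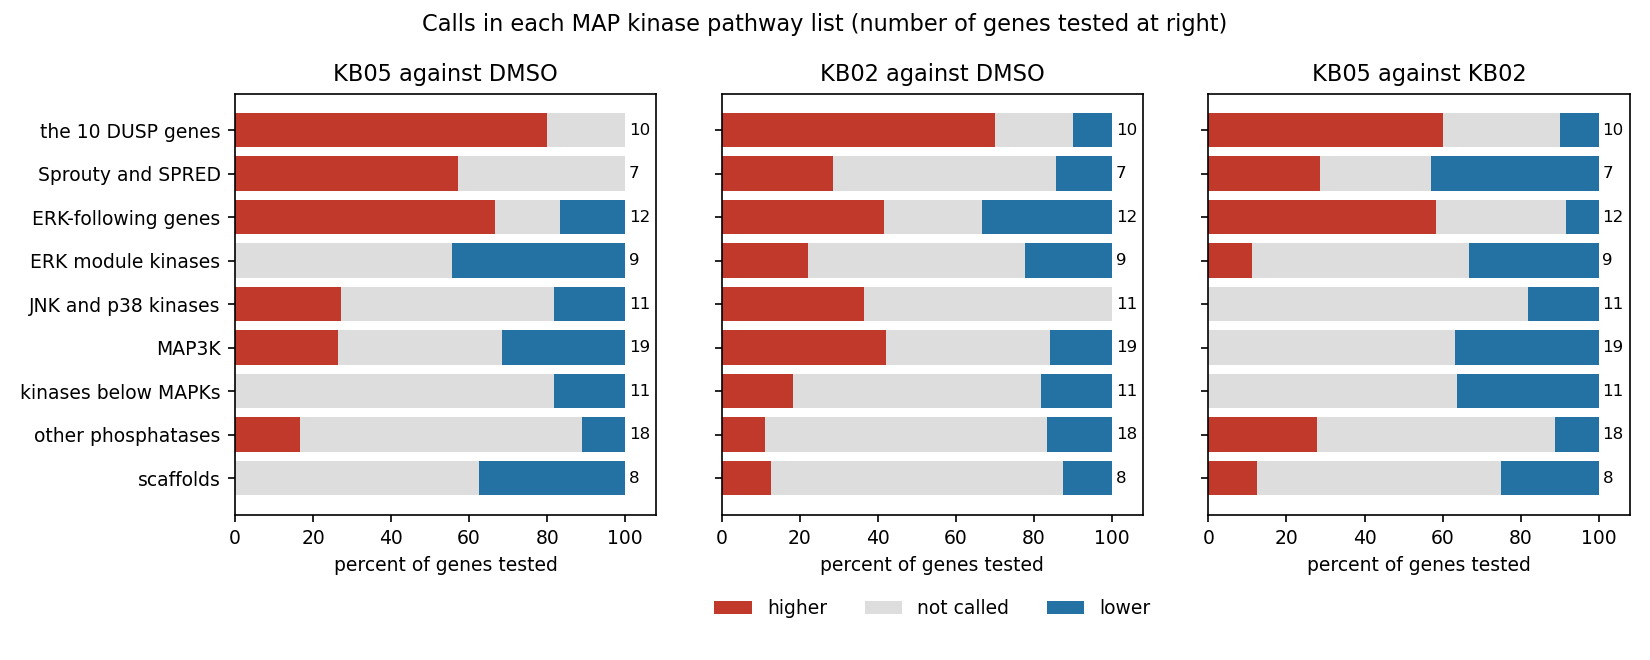
Share of the tested genes of each MAP kinase list (percent, number tested at the right of each bar) called higher, lower or neither in KB05 against DMSO, KB02 against DMSO and KB05 against KB02. The 10 DUSP genes stand at the top, with 8 higher for KB05 against DMSO and 7 higher and 1 lower for KB02 against DMSO.

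The kinases and scaffolds of the cascades were read in the same way. Of 9 genes of the ERK module tested, none rose and 4 fell with KB05, 2 rose and 2 fell with KB02, and 1 was higher and 3 lower with KB05 than with KB02. The list's shares were 0% higher and 44.4% lower with KB05 (18.7% and 21.1% of all genes), 22.2% each way with KB02, near the 22.8% and 23.3% of all genes, and 11.1% higher and 33.3% lower for KB05 against KB02 (21.8% and 18.2% of all genes). The 4 calls of KB05 against KB02 became 1 without KB05 replicate 3 and 2 without KB02 replicate 2, KB05 replicate 1 or KB05 replicate 2, and the 4 calls of KB02 against DMSO became 2 without KB02 replicate 1. ARAF, one of the RAF kinases that start the cascade, fell 1.67-fold with KB05 (adjusted p = 2.04e-09) and 1.93-fold with KB02 (adjusted p = 2.80e-12). MAPK7, known as ERK5, was 1.42-fold lower with KB05 than with DMSO (adjusted p = 8.93e-05). With KB02, MAPK7 was 1.18-fold lower (adjusted p = 0.0348). That call was lost with upper-quartile scaling (adjusted p = 0.0993), library-size scaling (adjusted p = 0.37) and DESeq2 (adjusted p = 0.0741). It was also lost without DMSO replicate 2 (adjusted p = 0.303), KB02 replicate 1 (adjusted p = 0.0946) or KB02 replicate 2 (adjusted p = 0.519).

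Of 11 JNK and p38 module genes tested, 3 rose and 2 fell with KB05, 4 rose and none fell with KB02, and none was higher and 2 were lower with KB05 than with KB02. The shares were 27.3% higher and 18.2% lower with KB05 (18.7% and 21.1% of all genes), 36.4% higher and 0% lower with KB02 (22.8% and 23.3% of all genes), and 0% higher and 18.2% lower for KB05 against KB02 (21.8% and 18.2% of all genes). The 2 calls of KB05 against KB02 became 1 with no filter on low counts and without DMSO replicate 3, KB02 replicate 2 or 3, or any single KB05 library. MAP2K4, a kinase that activates JNK, rose 1.77-fold with KB02 (adjusted p = 7.90e-08), had a log2 difference of 0.03 with KB05 (adjusted p = 0.873), and was 1.73-fold lower with KB05 than with KB02 (adjusted p = 2.49e-07). MAPK8, which encodes JNK1, was 1.33-fold lower with KB05 (adjusted p = 0.000658), and MAPK10, the JNK3 gene, was 2.34-fold higher with KB05 (adjusted p = 0.00222). MAPK10 was low, with means of 2.63 CPM with KB05, 2.08 CPM with KB02 and 1.11 CPM with DMSO. With KB02, MAPK10 was 1.84-fold higher (adjusted p = 0.0219), a call lost without DMSO replicate 3 (adjusted p = 0.137), KB02 replicate 2 (adjusted p = 0.064) or KB02 replicate 3 (adjusted p = 0.0816). The MAP3K list of 19 had 5 higher and 6 lower with KB05, 8 higher and 3 lower with KB02, and none higher and 7 lower with KB05 than with KB02. These are 26.3% higher and 31.6% lower with KB05, 42.1% higher and 15.8% lower with KB02, and 0% higher and 36.8% lower for KB05 against KB02, to be read beside the same shares of all genes. The 7 calls of KB05 against KB02 became 12 with scaling by library size only and 11 without KB02 replicate 1. MAP3K14, the kinase upstream of non-canonical NF-kB, rose 1.74-fold with KB05 (adjusted p = 2.12e-07) and 2.02-fold with KB02 (adjusted p = 5.49e-10). MAP3K13, whose pattern was among those nearest to DUSP16, rose 1.57-fold with KB05 (adjusted p = 1.62e-07) and 1.65-fold with KB02 (adjusted p = 9.18e-09). MAP3K6 fell 1.73-fold with KB05 (adjusted p = 8.07e-08) and 1.57-fold with KB02 (adjusted p = 7.27e-07).

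Among 18 other phosphatases tested, which include further DUSPs outside the 10, 3 rose and 2 fell with KB05, 2 rose and 3 fell with KB02, and 5 were higher and 2 lower with KB05 than with KB02. In shares this was 16.7% higher and 11.1% lower with KB05 (18.7% and 21.1% of all genes), 11.1% higher and 16.7% lower with KB02 (22.8% and 23.3% of all genes), and 27.8% higher and 11.1% lower for KB05 against KB02 (21.8% and 18.2% of all genes). With either compound against DMSO these shares were below those of all genes, a gap in a list of 18 that was not tested. Without KB02 replicate 2 the counts of KB05 against KB02 were 3 higher and 1 lower. PPM1D, a p53-induced phosphatase that acts on p38, rose 1.90-fold with KB05 (adjusted p = 1.78e-08) and 2.21-fold with KB02 (adjusted p = 5.94e-11). DUSP15 averaged 5.57 ± 0.446 CPM with KB05, 1.01 ± 0.802 CPM with KB02 and 1.41 ± 0.650 CPM with DMSO (SD, n = 3 each), higher by 3.96-fold with KB05 than with DMSO (adjusted p = 0.00257). The log2 difference of DUSP15 for KB02 against DMSO was -0.52 (adjusted p = 0.427), and without KB02 replicate 3 it was -1.33 and passed the threshold (adjusted p = 0.00585). DUSP18 was low, with means of 2.34 CPM with KB05, 1.99 CPM with KB02 and 3.95 CPM with DMSO. It was 1.97-fold lower with KB02 (adjusted p = 0.00159) and 1.67-fold lower with KB05 (adjusted p = 0.0178). The KB05 call was lost without DMSO replicate 1 (adjusted p = 0.0792) or KB05 replicate 2 (adjusted p = 0.108).

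Of 8 scaffolds, none rose and 3 fell with KB05, 1 rose and 1 fell with KB02, and 1 was higher and 2 lower with KB05 than with KB02. The shares were 0% higher and 37.5% lower with KB05 (18.7% and 21.1% of all genes), 12.5% each way with KB02 (22.8% and 23.3% of all genes), and 12.5% higher and 25% lower for KB05 against KB02 (21.8% and 18.2% of all genes). The 2 calls with KB02 became 4 with upper-quartile or library-size scaling and without KB02 replicate 3. The scaffold IQGAP1 fell 1.44-fold with KB05 (adjusted p = 1.39e-05) and 1.94-fold with KB02 (adjusted p = 1.33e-10), and MAPK8IP3, a scaffold of the JNK cascade, fell 1.87-fold with KB05 (adjusted p = 5.44e-09). Of 11 kinases downstream of the MAP kinases, none rose and 2 fell with KB05, 2 rose and 2 fell with KB02, and none was higher and 4 lower with KB05 than with KB02. That is 0% higher and 18.2% lower with KB05, 18.2% each way with KB02, and 0% higher and 36.4% lower for KB05 against KB02, beside the same shares of all genes. The 2 calls with KB05 became 4 with RLE scaling and 1 without KB05 replicate 2 or 3, and without either of these the 4 calls became 2. LAMTOR3, which tethers an ERK module to late endosomes, rose 1.37-fold with KB02 (adjusted p = 0.000733). RPS6KA4, a nuclear kinase activated by ERK and p38, rose 1.3-fold with KB02 (adjusted p = 5.54e-05). RPS6KA5, its close relative, rose 1.34-fold with KB02 (adjusted p = 0.0189), a call lost when DMSO replicate 3 (adjusted p = 0.0647) or KB02 replicate 3 (adjusted p = 0.107) was left out. RPS6KA6 was 1.27-fold lower with KB05 (adjusted p = 0.0257), a call lost without DMSO replicate 1 (adjusted p = 0.181) or any single KB05 library (adjusted p = 0.0565 to 0.0583). MAPKAPK5, a p38-regulated kinase, was 1.20-fold lower with KB05 (adjusted p = 0.00483) and 1.23-fold lower with KB02 (adjusted p = 0.00118).

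Total estimated counts ran from 15507130 to 19617330 in KB05 libraries, 17216861 to 21900671 in KB02 libraries and 17565251 to 19830410 in DMSO libraries. All 10 luminal prostate markers were above 1 CPM in every library, with summed levels of 3281 to 3337 CPM in KB05 libraries, 2551 to 2718 CPM in KB02 libraries and 2806 to 3159 CPM in DMSO libraries. Of 13 markers of other cell types, 4 (PTPRC, COL1A1, CHGA and SYP) were above 1 CPM in every library, and the summed level of the 13 was 228 to 252 CPM with KB05, 163 to 179 CPM with KB02 and 259 to 304 CPM with DMSO. SYP made up most of that sum, with means of 206 CPM with KB05, 124 CPM with KB02 and 247 CPM with DMSO. CD14, a monocyte marker, went the other way with KB02, with means of 0.397 CPM with KB05, 8.80 CPM with KB02 and 0.541 CPM with DMSO. COL1A1, a fibroblast marker, went the other way with each compound, with means of 19.7 CPM with KB05, 22.7 CPM with KB02 and 14.5 CPM with DMSO. PTPRC and CHGA were lower with each compound than with DMSO. The part of these markers in the results was not tested. Pseudogenes named after DUSP5 and DUSP8 were low, with DUSP5P1 at 0.591 CPM with KB05, 1.20 CPM with KB02 and 1.03 CPM with DMSO, and DUSP8P5 at 0.900 CPM with KB05, 1.45 CPM with KB02 and 0.673 CPM with DMSO.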

How the data were processed

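Messenger RNA of 22Rv1 cells was measured by RNA sequencing in 9 libraries, 3 per group. The authors deposited 1 table of estimated counts, not scaled to depth. Salmon 1.3.0, DESeq2 1.30.1, hg38 and GRCh38.p13 are named, per the submitters' processing notes. The sources used here do not give the annotation release or how transcripts were summed. Salmon assigns ambiguous reads by likelihood, so counts of overlapping genes and close copies are estimates. In the deposited table, 20.3% to 24.3% of values per library were not whole, and all were rounded. Column names carry a tag of 2 h, read as the recovery time.

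Symbols came from a name table that matched 60064 of 60232 identifiers, and positions from GENCODE release 29 (GRCh38). Counts were tested with edgeR 4.0.16 under R 4.3.3. The low-count filter was filterByExpr (minimum count 10), library sizes were scaled by TMM, and 1 robust quasi-likelihood model was fitted to all 9 libraries. The 3 comparisons were contrasts of that model, with Benjamini-Hochberg adjustment over the 18379 genes and a threshold of 0.05. The SE is the size of the log2 fold change divided by the square root of F, and intervals are at 95%. Total estimated counts per library ran from 15507130 to 21900671, and the lowest estimated count of a phosphatase gene was 57. Replicates differed beyond sampling noise (chi-square per degree of freedom 4.38 to 10.5), which does not by itself show separate cultures. All 9 were counted separately because the design text describes the triplicates as biological. The p-values measure the spread between these libraries.

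The 10 genes, their roles and the pathway lists were chosen with earlier results of these data known. Named genes are the 10 phosphatases and genes taken by rule from each pathway list. In each comparison with DMSO, the rule took a list's 2 called genes of largest change with a mean log2 CPM of at least 1. EPHA2 and MAP3K7 are named outside this rule. Likeness takes the 3 nearest genes to the member of highest mean CPM in each role class. Promoter windows came from RefSeq tables. Alternatives were RLE, upper-quartile and library-size scaling, no filter on low counts, DESeq2 1.42.0, a replicate block, only the groups compared, and leaving out each library. For 1 gene that the naming rule takes, the result is not reported here. The procedure was checked on simulated data in which far fewer genes changed than were called here, with rises and falls equally likely. That check therefore cannot show how the scaling performs in these data. The 15 samples collected at 8 h were not analysed here.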

Additional observations from a re-analysis of the deposited data

Results flagged for a closer look

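DUSP4 and SPRY1 were called in opposite directions against DMSO, and the direct comparison tested the difference between the compounds. They were not alone among the genes of the lists. EPHA2, an ERK-following gene, was called 1.28-fold higher with KB05 and 1.16-fold lower with KB02. MAP3K7 was called 1.17-fold lower with KB05 and 1.38-fold higher with KB02. The share of all genes with opposite calls was not counted. For DUSP4, KB05 exceeded KB02 by 2.57 on the log2 scale (edgeR's quasi-likelihood test, adjusted p = 5.83e-19), with 3 of 3 KB05 libraries above and 3 of 3 KB02 libraries below all DMSO libraries. For SPRY1, an inhibitor upstream of ERK, KB05 exceeded KB02 by 1.79 (adjusted p = 1.27e-09), with the same order of libraries. Both comparisons with DMSO share the same DMSO libraries. Over the 16 alternatives, which include leaving out each of the 9 libraries, the difference of KB05 from KB02 ran from 2.46 to 2.67 for DUSP4 and from 1.67 to 1.83 for SPRY1.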

How the results depend on the processing

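The number of phosphatase genes called was 8 for KB05 against DMSO under all 16 alternatives, 8 to 9 for KB02 against DMSO and 5 to 8 for KB05 against KB02. With single libraries left out these counts were 8, 8 to 9 and 5 to 7. With a replicate block they were 8, 9 and 7. Whether replicate numbers pair the libraries was left unsettled. The same-number correlations of deviations from group means were small, from -0.0412 to 0.0813, while 7 of 9 libraries correlated best with their own number. Scaling by library size only moved the median of all genes by 0.13 for KB02 against DMSO and by -0.11 for KB05 against KB02. It took the share of calls that were higher to 63.8% for KB02 against DMSO (49.5% with TMM) and to 37.4% for KB05 against KB02 (54.4% with TMM). Of 480 results of single phosphatase genes under alternatives, 456 kept their direction and side of the threshold, 8 fell short of it, 12 newly passed it and 4 changed sign. All sign changes were of differences not called. With single libraries left out, DUSP14 for KB05 against DMSO ran from -0.040 to 0.078, negative without DMSO replicate 1 or KB05 replicate 2. DUSP16 for KB05 against KB02 ran from -0.078 to 0.019, positive without KB05 replicate 1 or 2. SPRY2 for KB02 against DMSO ran from -0.031 to 0.24, negative without DMSO replicate 3, and MAP2K4 for KB05 against DMSO from -0.084 to 0.098, negative without DMSO replicate 2 or KB05 replicate 2. MAPKAPK5 for KB05 against KB02 ran from -0.034 to 0.075, negative without DMSO replicate 2, KB02 replicate 1 or 2, or KB05 replicate 3, and was -0.081 with library-size scaling and -0.0066 with only those groups in the fit. The causes were not tested. MAPKAPK5 for KB02 against DMSO lost its call with library-size scaling (adjusted p = 0.0682), and DUSP18 for KB05 against DMSO lost its call without DMSO replicate 1 (adjusted p = 0.0792) or KB05 replicate 2 (adjusted p = 0.108). The small differences of DUSP7, DUSP8, DUSP10 and DUSP14 between KB05 and KB02 changed side of the threshold between alternatives.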
